A study of Danio rerio with 12 samples.

Results

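The genes described here are fga, fgb and fgg, which encode the alpha, beta and gamma chains of fibrinogen, tfa, which encodes the iron carrier transferrin, and apoa2, which encodes apolipoprotein A-II. They were chosen by their measured differences from control on these same arrays, above all by that of MO-1 with arrays paired by replicate number, so those differences are given as a description, with no test. Each gene had 1 probe set under its platform symbol, which makes 5 genes of the 8793 that carried a symbol. The arrays profiled endothelial cells sorted from zebrafish embryos at 48 hours after fertilization, to find genes regulated by the endothelial microRNA miR-126. All embryos carried flk1:GFP, a transgene with the promoter of an endothelial VEGF receptor, and GFP-positive cells were collected. There were 3 groups of 4 biological replicates, a control group and a group for each of the antisense morpholinos miR-126 MO-1 and MO-2. These are independent of each other, and each was injected at 4 ng into the fertilized egg before its first division to block maturation of the miR-126 precursor. Control replicate 1 is labelled as uninjected, the labels of control replicates 2, 3 and 4 name no injection, and no control oligonucleotide is named, so an effect of the oligonucleotide and one of the injection cannot be told apart.

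Fibrinogen is a soluble plasma protein that hepatocytes assemble from its alpha, beta and gamma chains and secrete; thrombin converts it to the fibrin of clots. Transferrin carries iron in plasma to developing red cells, and apolipoprotein A-II is a protein of high-density lipoprotein. In zebrafish larvae these plasma proteins are made mainly by the liver, and several apolipoprotein genes are also expressed in the yolk syncytial layer, which exports lipid from the yolk. None of the 5 is a defining gene of endothelium, and each value below is the signal of a probe set in the RNA of a whole sort, in which fewer cells of a type and less RNA per cell cannot be told apart.

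Endothelial markers were measured in the sorts, with kdrl, the receptor gene of the flk1 promoter, at a mean log2 signal of 7.26 ± 0.60 in control (SD, n = 4, as for the other means given with an SD), 7.34 ± 1.03 with MO-1 and 7.59 ± 1.17 with MO-2. Markers of other cell types gave signal too. The strongest gene of the endothelial list, aqp1a.1, had a control mean of 9.54. Those of the myeloid, erythroid and epidermis lists, lyz, hbae3 and icn, had 13.36, 12.76 and 12.71. Signals of different probe sets do not give the shares of cell types, so the purity of the sorts was not tested. Replicate 4 of each group stood apart: averaged over 11 endothelial genes, the centred signal of these arrays was -0.68 for control, -1.13 for MO-1 and -0.93 for MO-2, and -0.07 or higher on the other 9 arrays. Muscle genes varied widely: the centred mean of 31 was lowest, at -1.71, on control replicate 3, and 31 of 31 had a higher mean with MO-2 than in control, where limma called 0 of them. Array medians ran from 6.80 to 6.86 log2 and lower quartiles from 5.39 to 5.61.

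The alpha chain gene fga had log2 signals of 5.31, 5.23, 7.28 and 7.51 in control replicates 1 to 4. With MO-1 its values were 5.33, 3.69, 4.58 and 5.27 in the same order, and with MO-2 they were 4.72, 4.34, 6.28 and 4.73. Control replicates 3 and 4 were thus the highest arrays, MO-2 replicate 3 came next, and control replicates 1 and 2 lay inside the range of both morpholino groups. The means were 6.34 ± 1.23 in control, against 4.72 ± 0.77 with MO-1 and 5.02 ± 0.86 with MO-2, which are differences of -1.62 (SE 0.58) and -1.32 (SE 0.58) log2, or 3.07-fold and 2.49-fold lower. The signal was weak, since fga was below the lower quartile of the array on 9 of the 12 arrays, all but control replicates 3 and 4 and MO-2 replicate 3.

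The beta chain gene fgb had control signals of 6.34, 5.65, 7.19 and 6.70 log2, then 6.20, 4.82, 5.49 and 5.80 with MO-1, and 5.82, 5.81, 6.63 and 5.55 with MO-2, each in the order of replicates 1 to 4. Control replicate 3 was the highest array and MO-1 replicate 2 the lowest, and control replicate 2 lay within the range of both morpholino groups. The signal of fgb was below the array median on 11 of the 12 arrays. It was below the lower quartile on 2, MO-1 replicates 2 and 3. Its means were 6.47 ± 0.65 in control, against 5.58 ± 0.58 with MO-1 and 5.95 ± 0.47 with MO-2, with differences from control of -0.89 (SE 0.35) and -0.52 (SE 0.35) log2.

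The gamma chain gene fgg, whose product also carries a binding site for platelet integrin in mammals, had log2 signals of 6.40, 6.80, 7.82 and 6.96 in control. They were 6.39, 5.30, 5.89 and 6.52 with MO-1 and 6.84, 6.33, 6.89 and 6.15 with MO-2. MO-1 replicate 4 was above control replicate 1, and MO-1 replicate 2 was the only array where fgg was below the lower quartile. With MO-2 all 4 values were below control replicates 3 and 4, and 2 of them were above control replicates 1 and 2. The control mean was 6.99 ± 0.60, the MO-1 mean 6.02 ± 0.55 and the MO-2 mean 6.55 ± 0.37, with differences from control of -0.97 (SE 0.32) and -0.44 (SE 0.32) log2.

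After fga, the transferrin gene had the largest differences of the 5. The log2 signals of tfa were 6.46, 7.20, 8.24 and 8.27 in control, 6.38, 5.52, 5.41 and 7.28 with MO-1, and 6.44, 5.62, 6.90 and 6.64 with MO-2. Control replicate 1 lay among the morpholino arrays, and MO-1 replicate 4 was above control replicates 1 and 2. MO-1 replicate 3 was the only array where tfa was below the lower quartile. The means were 7.54 ± 0.88 in control, against 6.15 ± 0.87 with MO-1 and 6.40 ± 0.55 with MO-2, with differences of -1.39 (SE 0.47) and -1.14 (SE 0.47) log2, the first of which is 2.63-fold lower.

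For apoa2 the log2 signals were 7.13, 7.40, 8.62 and 8.04 in control, 6.97, 6.69, 6.87 and 7.24 with MO-1, and 7.17, 6.59, 8.19 and 7.46 with MO-2. The MO-1 values lay close together, with replicate 4 above control replicate 1, and MO-2 replicate 3 was above all control arrays but replicate 3. The means were 7.80 ± 0.67 in control, against 6.94 ± 0.23 with MO-1 and 7.35 ± 0.67 with MO-2, with differences of -0.85 (SE 0.34) and -0.45 (SE 0.34) log2.

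**Figure D1:**
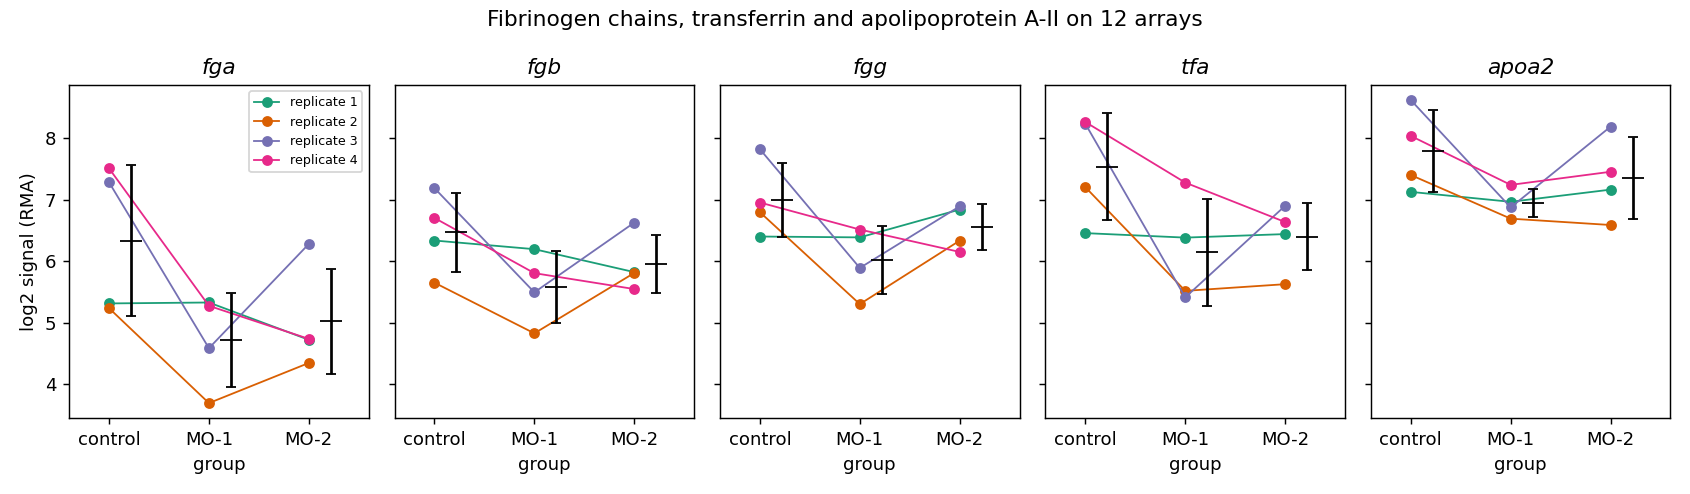
Log2 signal (vertical axis) of fga, fgb, fgg, tfa and apoa2 in control, MO-1 and MO-2 (horizontal axis); points are arrays, lines join arrays with the same replicate number, and black bars are means with SD (n = 4). Control replicates 3 and 4 sit highest or near it for each gene, as with fga at 7.28 and 7.51, while the lines of replicate 1 between control and MO-1 are nearly flat.

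With MO-1, all 5 genes were at least 1.5-fold lower than control by the difference of means, and 0.355% of the 15502 probe sets tested were; with MO-2, fga and tfa were, against 0.497% of probe sets. These shares are background to a count that the choice of the genes used. For 0 of the 5 genes did the MO-1 or the MO-2 arrays lie wholly below the control arrays, which 0.323% of all probe sets did with MO-1 and 0.884% with MO-2. Under limma's test of the whole table, 0% of probe sets were called at an adjusted p below 0.05 in MO-1 or MO-2 against control or in both together, without or with the replicate number as a block (replicate block). At an unadjusted p below 0.05 there were 172, 345 and 293 probe sets without the block and 445, 947 and 849 with it. Without the block each count was a smaller share of the probe sets than the threshold of 0.05. That fit keeps the spread between replicate numbers in its SEs, so 0% called does not show a lack of difference.

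Arrays with the same replicate number were taken as pairs, although the labels do not say what a number stands for. The pairs did not contribute alike. With MO-1, pair 1 differed little: MO-1 minus control was 0.02 for fga, -0.14 for fgb, -0.01 for fgg, -0.07 for tfa and -0.16 for apoa2. Pair 3 differed most for each gene, from -1.70 for fgb to -2.83 for tfa, with -2.70 for fga, -1.93 for fgg and -1.75 for apoa2. In pair 2 the differences ran from -1.69 for tfa to -0.71 for apoa2, and in pair 4 from -2.24 for fga to -0.44 for fgg. All 4 pairs were lower for fgb, fgg, tfa and apoa2 and 3 of 4 for fga, where 3.86% of all probe sets were lower in each of the 4 pairs. The genes were chosen by these pair differences, so the share is only background to a count that the choice used. The means over pairs had SDs of 1.19 for fga, 0.64 for fgb, 0.89 for fgg, 1.16 for tfa and 0.66 for apoa2.

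With MO-2, pair 1 again had the smallest median difference, -0.02, and the genes went apart in it: fga was at -0.59, fgb at -0.51, tfa at -0.02, apoa2 at 0.04 and fgg at 0.44. The medians were -0.81, -0.93 and -1.16 in pairs 2, 3 and 4. The only difference above 0 outside pair 1 was that of fgb in pair 2, at 0.16. The lowest was that of fga in pair 4, at -2.78, which was 52.7% of the summed difference of that gene over the pairs. The genes lower in 4 of 4 pairs were fga and tfa, and 6.86% of all probe sets were so with MO-2. This share too is only background, since the genes were chosen by their differences from control. Control replicate 1 is the array labelled as uninjected, so that label and the replicate number cannot be told apart here. Without the arrays numbered 1, the median difference of the 5 genes was -1.29 with MO-1 and -0.73 with MO-2, against -0.97 and -0.52 over all arrays. Without control replicate 3 alone these medians were -0.69 and -0.28, and without control replicate 2 alone the MO-2 median was -0.79. Without replicate 4 of each group, where endothelial signal was lowest, they were -1.15 and -0.40.

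**Figure D2:**
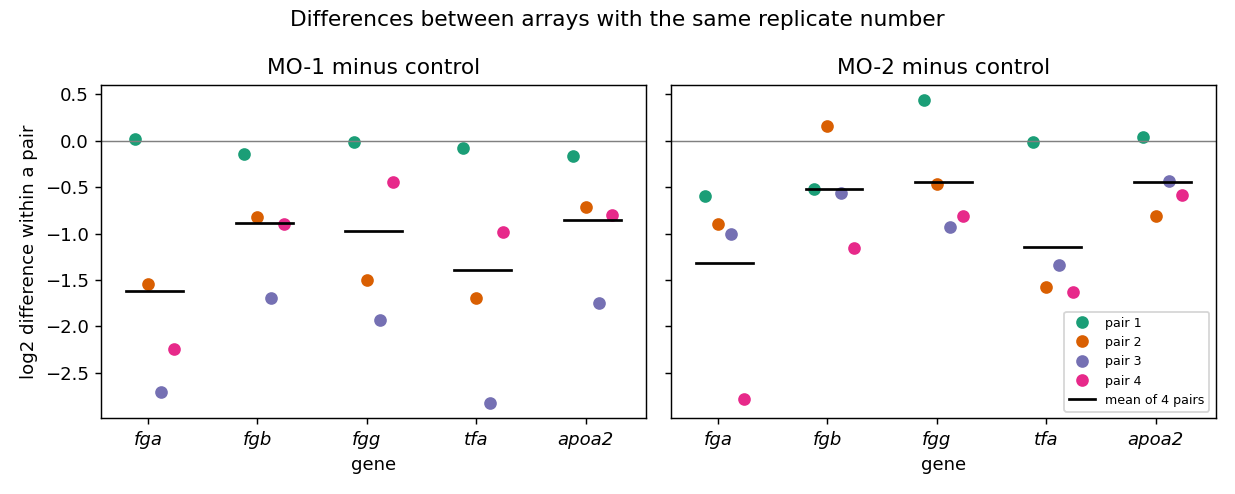
Log2 difference between a morpholino array and the control array with the same replicate number (vertical axis) for each gene (horizontal axis), MO-1 left and MO-2 right; points are pairs and black lines the mean of 4 pairs. Pair 1 lies near 0 for each gene with MO-1, between -0.16 and 0.02, while pair 3 reaches -2.83 for tfa.

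Between the morpholinos, each of the 5 genes had a higher mean with MO-2 than with MO-1, by 0.25 for tfa, 0.30 for fga, 0.37 for fgb, 0.41 for apoa2 and 0.53 for fgg. The SEs were 0.32 to 0.58, and the 95% intervals included 0, as for fgg from -0.16 to 1.22 and for fga from -0.95 to 1.55. The adjusted p by limma was 1.00 for each gene, with or without the replicate block. Limma called 0% of probe sets in this comparison, with 87 at an unadjusted p below 0.05 and 354 with the block. The comparison shares its arrays with those that chose the genes, and the comparisons of MO-1 and MO-2 with control share the control arrays. Without the arrays numbered 3 the differences were -0.16 for fga and -0.16 for tfa; leaving out MO-2 replicate 3 alone gave -0.12 for fga, and leaving out MO-1 replicate 2 alone gave -0.04. With medians of 4 arrays in place of means, fga was at -0.20. Pair 3 had the largest difference for fga, fgb, tfa and apoa2, from 1.14 for fgb to 1.70 for fga, and fga and fgb were higher with MO-2 in 2 of 4 pairs, the others in 3 of 4.

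The order of the arrays inside a group was in part shared by the 5 genes. Since they were chosen by differences between these same arrays, the choice itself favoured a shared order and a wide spread in control. In control, replicate 3 was the highest array for 3 genes and replicate 4 for 2, and the lowest were replicate 1 for 3 genes and replicate 2 for 2. With MO-1, replicate 2 was the lowest array for 4 of the 5 genes, and with MO-2 replicate 3 was the highest for all 5. The mean of the 5 genes, each centred on its mean over the 12 arrays, was -0.06, 0.07, 1.44 and 1.11 in control replicates 1 to 4, then -0.14, -1.18, -0.74 and 0.03 with MO-1 and -0.19, -0.65, 0.59 and -0.28 with MO-2. The SD over the control arrays was 1.23 for fga, where the median gene had 0.21, and 0.557% of genes had an SD as high. That share was 1.59% for tfa, 3.83% for apoa2, 4.12% for fgb and 4.95% for fgg. The spread of these genes within control was thus wide beside that of most genes, and the SEs of their differences exceeded the median SE of 0.18.

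**Figure D3:**
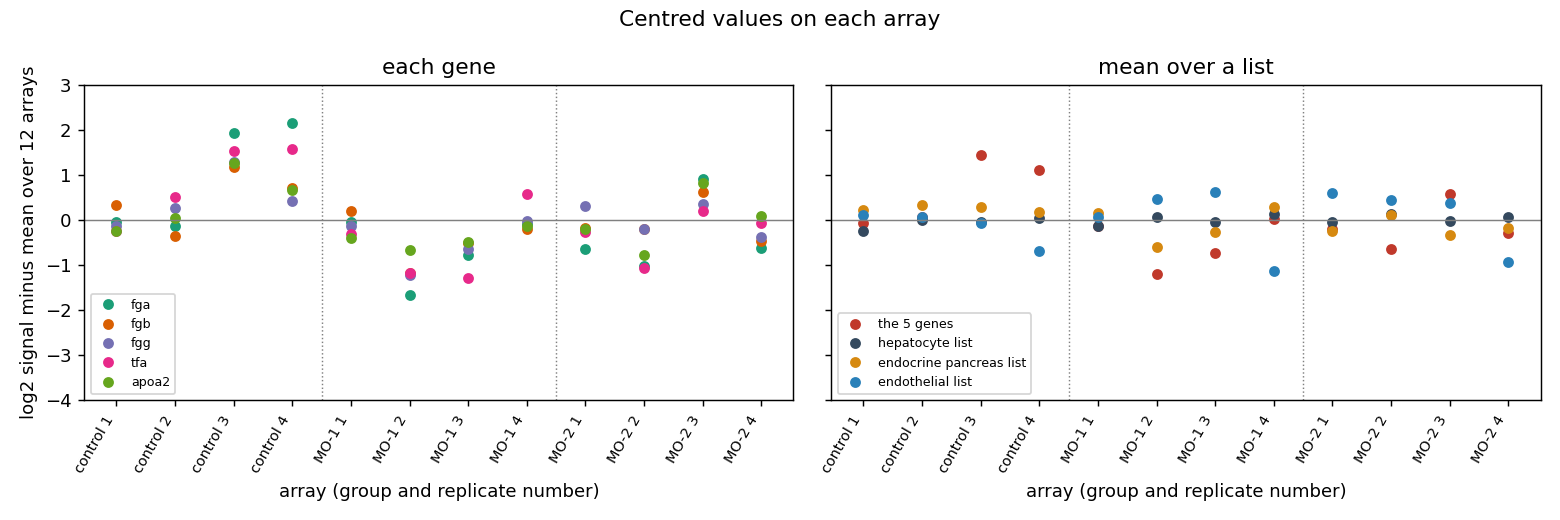
Log2 signal minus the mean over 12 arrays (vertical axis) on each array (horizontal axis), for each gene (left) and as means over lists (right). The 5 genes, chosen on these arrays, are high together and reach list means of 1.44 and 1.11 in control replicates 3 and 4. The mean of the hepatocyte list is at -0.04 and 0.06 there, and single genes of that list differ from its mean.

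The rest of the liver lists is given for comparison; since the 5 genes were picked by their low values, that the genes left over are less low was largely fixed by the choice. In 4 lists (coagulation and fibrinolysis, apolipoproteins and lipoprotein assembly, other liver plasma proteins, and hepatocyte enzymes and regulators), 127 further genes were measured. Their median difference was 0.06 log2 with MO-1 and 0.06 with MO-2, where the median of all genes was 0.02 and 0.01. Of the 127, 44 (34.6%) and 46 (36.2%) were lower, against 43.8% and 46.7% of all genes. None of the 127 reached a 1.5-fold lower mean, and limma called 0 of them in each comparison, without or with the replicate block. At an unadjusted p below 0.05 there were 1 and 0 of the 127, against 172 and 345 of the 15502 probe sets. With the block there were 6 and 8, against 445 and 947 probe sets. With MO-1 0 of the 127 were as low as apoa2, which had the smallest difference of the 5; over all genes with a symbol, 7 beside the 5 were, of which 3 (ins, gcga and sst1.1) are in the endocrine pancreas list and 3 (hbbe2, hbae3 and cahz) in the erythroid list. With MO-2 1 of the 127, apoeb, was as low as fgg, among 119 of all genes beside the 5. By mean signal, 34.6% of the 127 lay below the lower quartile of all probe sets. The lists are not specific to liver: cebpa and cebpb are in the myeloid list too, and mttp in the yolk and intestine list. Their medians therefore do not show how liver genes in general behaved in the sorts.

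The clotting system holds the enzymes that make fibrin from fibrinogen, cross-link it and dissolve it. Of 47 listed genes of coagulation and fibrinolysis 18 were measured, 7 of them lower with each morpholino, with medians of 0.03 and 0.07 and differences from -0.11 to 0.36 with MO-1 and from -0.20 to 0.45 with MO-2. The genes with the highest signal were f13a1b, a factor XIII subunit gene, at 0.01 (SE 0.58) with MO-1 and 0.14 (SE 0.58) with MO-2, the cofactor gene f5 at -0.01 and 0.08 (SE 0.31 each), the kininogen gene kng1 at 0.05 and -0.14 (SE 0.17 each) and tfpia, an inhibitor of the tissue factor pathway, at 0.36 and 0.45 (SE 0.27 each). By the size of its difference masp2, a complement protease gene, was named too, at 0.30 and 0.12 (SE 0.25 each). Of 19 listed fibrinogen receptor and platelet genes 7 were measured, with medians of 0.04 with MO-1 and -0.01 with MO-2. By size nfe2, a transcription factor gene of erythroid cells and thrombocyte precursors, was at -0.30 and -0.24 (SE 0.20 each) and itga5, an integrin alpha chain gene, at 0.09 and 0.26 (SE 0.21 each).

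Around apoa2, 22 of 36 listed genes of apolipoproteins and lipoprotein assembly were measured, with medians of 0.06 and 0.00 and 9 and 11 genes lower. Of the genes with the highest signal, apoeb, which encodes an apolipoprotein E, was at -0.13 and -0.45 (SE 0.39 each), the lipase inhibitor gene angptl4 at -0.33 and -0.18 (SE 0.30 each), the endothelial lipase gene lipg at -0.14 and 0.11 (SE 0.31 each) and the lipoprotein receptor gene scarb1 at 0.12 and 0.16 (SE 0.15 each). By size lpla, a lipoprotein lipase gene, was at 0.26 with both (SE 0.23). The apolipoprotein genes apoeb, apoc1, apoc4 and apoc2 are neighbours of apoa2 on chromosome 16 of the RefSeq annotation of GRCz12tu, in which apoa2 lies between apoc4 and apoc2. Beside the values of apoeb, apoc1 was at 0.40 and 0.04 (SE 0.25 each), apoc4 at 0.20 and 0.16 (SE 0.16 each) and apoc2 at 0.15 and -0.06 (SE 0.26 each). None of these apolipoprotein neighbours had a 1.5-fold lower mean, as apoa2 had with MO-1, but apoa2 was chosen for its low values and they were not.

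The nearest measured neighbours of fgb, fgg and tfa outside the chosen genes had smaller differences. This was largely fixed by the choice, which used the differences of those genes and not of their neighbours. The same annotation puts fga and fgb on chromosome 1 with 1 protein-coding gene between them and fgg elsewhere on that chromosome. Next to fgb lies rnf175, at -0.29 with MO-1 and -0.31 with MO-2 (SE 0.16 each), and next to fgg lies plrg1, a splicing factor gene, at 0.08 and 0.03 (SE 0.13 each). The nearest measured neighbour of fga is fgb, itself chosen, and on the other side of fga rbm46 was at 0.11 and -0.05 (SE 0.16 each). On chromosome 2 ubxn7 next to tfa was at 0.17 and -0.09 (SE 0.20 each).

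Among 39 measured genes of 72 listed as other liver plasma proteins the medians were 0.05 and 0.07, with 13 lower with each morpholino. The genes with the highest signal were igfbp1a, an insulin-like growth factor binding protein, at -0.32 and -0.06 (SE 0.22 each), the retinol carrier gene rbp4 at -0.03 and 0.48 (SE 0.94 each), the complement factor gene cfi at -0.15 and 0.03 (SE 0.17 each) and the selenium carrier gene selenop at 0.10 and 0.32 (SE 0.26 each). By size the complement gene c6.2 was at 0.44 and 0.39 (SE 0.27 each) and the acute-phase gene saa at 0.43 and 0.30 (SE 0.30 each).

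Hepatocyte enzymes and regulators had 48 measured genes of 73, with medians of 0.07 and 0.09 and 15 lower with each morpholino. Those with the highest signal were adh5, a formaldehyde-metabolizing dehydrogenase, at 0.07 and 0.04 (SE 0.14 each), the transcription factor gene cebpb at -0.24 and -0.29 (SE 0.21 each), the creatine synthesis gene gamt at 0.04 and 0.32 (SE 0.32 each) and the tyrosine catabolism gene hpda at 0.03 and 0.05 (SE 0.20 each). By size the nuclear receptor gene nr0b2a was at 0.75 and 0.29 (SE 0.44 each) and cyp1a, a monooxygenase gene, at 0.71 and 0.56 (SE 0.34 each). The hepatocyte fatty acid binding protein gene fabp10a, a defining liver gene of zebrafish larvae chosen after its values were seen, was the lowest of the 127 with MO-1. Its log2 signals were 6.62, 7.03, 7.18 and 8.41 in control, 6.39, 6.42, 6.66 and 7.68 with MO-1 and 7.14, 7.87, 6.87 and 7.02 with MO-2, with differences of -0.52 and -0.09 (SE 0.38 each). Among control arrays fabp10a was thus highest in replicates 3 and 4, as each of the 5 genes was, with replicate 3 close to replicate 2. With MO-2 its highest array was replicate 2, where that of the 5 genes was replicate 3. The control signals of uox of the same list, named after its values were seen, were 5.49, 5.69, 5.85 and 5.98, also highest in replicates 3 and 4. For g6pc1a.2 of that list only replicate 3 was high, at 5.09, with 4.34 to 4.42 in the other control arrays. The mean of the 48 centred genes was -0.24, 0.01, -0.04 and 0.06 in control replicates 1 to 4, so the mean of this list was not high in replicate 3. The list shares cebpa and cebpb with the myeloid list, so its mean is not specific to hepatocytes. The list mean ran from -0.13 to 0.13 with MO-1 and from -0.04 to 0.14 with MO-2, and its part in the difference of the 5 genes was not tested.

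**Figure D4:**
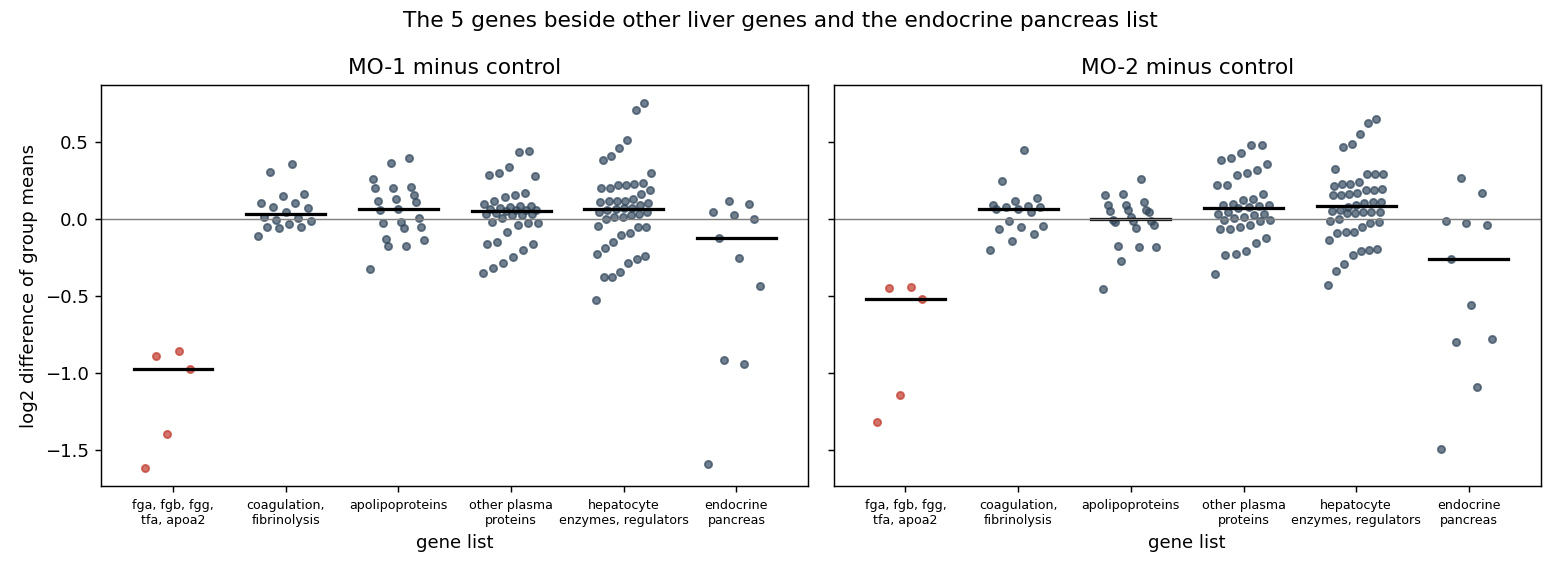
Log2 difference of group means (vertical axis) by gene list (horizontal axis), MO-1 left and MO-2 right; points are genes, red for the 5 genes that were chosen by this difference, and black lines are medians. The medians of the 4 other liver lists lie between 0.00 and 0.09, and the endocrine pancreas list holds the insulin gene at -1.59 and -1.50.

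Iron handling, in which transferrin acts, had 11 measured genes of 32, with medians of -0.01 and 0.02 and 6 and 4 genes lower. Of the genes with the highest signal, the ferritin genes fth1a and fthl27 were at -0.09 (SE 0.14) and -0.01 (SE 0.12) with MO-1 and -0.13 and -0.02 with MO-2. The others were pcbp2, an RNA-binding iron chaperone gene, at -0.02 and 0.03 (SE 0.14 each) and ncoa4, whose product directs ferritin to degradation, at -0.06 and 0.02 (SE 0.20 each). By size the iron importer gene slc11a2 was at 0.24 and 0.31 (SE 0.20 each) and the ferroxidase gene cp at -0.25 and -0.23 (SE 0.19 each). Genes of the transferrin receptors are not analysed here.

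Marker lists of other cell types differed from control on the same arrays in part. The 11 measured of 20 listed endocrine pancreas genes had medians of -0.12 with MO-1 and -0.26 with MO-2, where 6 and 9 were lower, and their centred mean ran from 0.18 to 0.35 in control, from -0.59 to 0.29 with MO-1 and from -0.33 to 0.11 with MO-2. The insulin gene ins was at -1.59 and -1.50 (SE 0.43 each), the glucagon gene gcga at -0.94 and -0.78 (SE 0.47 each) and the somatostatin genes sst1.1 and sst2 at -0.91 (SE 0.24) and -0.12 (SE 0.75) with MO-1 and -1.09 and -0.80 with MO-2; pax6b, a transcription factor gene, was at 0.03 and -0.01 (SE 0.25 each). The log2 signals of ins were 10.19, 11.09, 10.84 and 10.56 in control, then 10.30, 8.61, 7.91 and 9.51 with MO-1, and 8.97, 10.04, 8.83 and 8.86 with MO-2. MO-1 replicate 1 lay above control replicate 1, while all MO-2 arrays lay below every control array, replicate 1 included. The 17 measured yolk and intestine genes had medians of 0.11 and 0.06 and the 15 exocrine pancreas genes 0.10 and 0.06. The 12 measured of 21 listed erythroid genes, markers of the cells that use the iron of transferrin, had medians of -0.48 and -0.03, with 10 (MO-1) and 8 (MO-2) lower, and 5 of the 12 were at least 1.5-fold lower with MO-1. Their centred mean ran from 0.04 to 0.25 in control, from -0.92 to 0.48 with MO-1 and from -0.52 to 0.62 with MO-2. The embryonic globin genes hbae3 and hbbe2 were at -0.92 (SE 0.47) and -1.05 (SE 0.39) with MO-1, against -0.22 and -0.24 with MO-2, and cahz, a carbonic anhydrase gene named here after its values were seen, at -0.88 and -0.21 (SE 0.44 each). By the naming rule the list also gave the globin gene hbbe3, at -0.40 and 0.42 (SE 1.39 each), the anion exchanger gene slc4a1a, at -0.64 and -0.01 (SE 0.40 each), and alas2, of haem synthesis, at -0.75 and -0.41 (SE 0.47 each). Of 23 measured neural genes 16 were lower with each morpholino, with medians of -0.22 and -0.31 and centred means from -0.27 to 0.74 in control, from -0.65 to 0.29 with MO-1 and from -0.33 to 0.11 with MO-2. Of 22 measured epidermis genes 18 and 17 were lower, with medians of -0.14 and -0.13 and centred means from -0.42 to 0.55, from -0.54 to 0.39 and from -0.42 to 0.43. The medians of the endothelial genes were 0.16 and 0.28, those of 14 myeloid genes 0.13 and 0.08 and those of the muscle genes -0.02 and 0.62. Over all genes, 43.8% were lower with MO-1 and 46.7% with MO-2. Limma called 0 genes of each of these lists. The part of these lists in the difference of the 5 genes was not tested. As a sign of RNA quality, 3′ minus 5′ log2 signal of GAPDH was 1.33, 0.78, 1.82 and 1.76 in control replicates 1 to 4, higher in replicates 3 and 4, where the 5 genes were high as well. The GAPDH value was 1.07, 1.57, 1.68 and 1.79 with MO-1 and 1.15, 1.11, 1.79 and 2.09 with MO-2, also higher in replicates 3 and 4. There the centred mean of the 5 genes was not high throughout. It was -0.74 and 0.03 in MO-1 replicates 3 and 4, and 0.59 and -0.28 in those of MO-2. For acta1 the 3′ minus 5′ signal was 3.38, 2.98, 3.04 and 3.88 in control, 3.46, 2.50, 3.23 and 3.49 with MO-1 and 2.64, 2.69, 3.11 and 3.70 with MO-2. In control, replicate 3 was thus below replicate 1 for acta1. This is a muscle actin gene, and the centred mean of the muscle genes was lowest on control replicate 3, at -1.71. Its 3′ minus 5′ signal is therefore no sign of RNA quality apart from muscle signal. The part of the 3′ minus 5′ signals in the difference of the 5 genes was not tested.

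Finally, the genes closest in pattern were sought over the 12 arrays by the root mean square difference between the centred signal of a gene and the centred mean of the 5 genes. The median of this distance over all genes was 0.75 log2. The 5 genes themselves, which make up the mean, were at 0.27 to 0.43. The 8 closest other genes were vipb, encoding a vasoactive intestinal peptide, at 0.39, hsd11b2, a cortisol-inactivating enzyme gene, at 0.48, the transcription factor gene etv4 at 0.49, the protease inhibitor gene spint1b at 0.50, the glucose-6-phosphatase gene g6pc1a.2 at 0.50, cbln11 at 0.51, serpina1l, an alpha-1-antitrypsin-like gene, at 0.51 and met, the hepatocyte growth factor receptor gene, at 0.51. The signals of vipb in control were 5.89, 6.25, 8.16 and 7.93, high in replicates 3 and 4 like those of fga, and its differences from control were -0.78 with MO-1 and -0.64 with MO-2 (SE 0.47 each). Those of hsd11b2 were -0.47 and -0.46 (SE 0.24 each) and those of etv4 -0.30 and -0.18 (SE 0.26 each). For spint1b they were -0.26 and -0.36 (SE 0.24 each), and for g6pc1a.2 -0.37 and 0.11 (SE 0.25 each). Those of cbln11 were -0.55 and -0.47 (SE 0.28 each). For serpina1l they were -0.35 with both (SE 0.20), and for met -0.32 and -0.06 (SE 0.20 each). Likeness to the 5 genes in control order and in these differences was set by the search, which used all 12 arrays.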

How the data were processed

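RNA of flow-sorted cells was hybridised to 12 Affymetrix arrays (1 colour, zebrafish), after Trizol extraction and amplification with the NuGen WT-Ovation Pico kit, per the labels' protocols. The authors' tool was RMA (Robust Multi-array Average), which the submitters' processing notes name without a version; the deposited signals are on a log2 scale, as judged from their range. RMA corrects background and normalizes between arrays, so levels are relative to the other RNA of a sort; it holds no detection calls.

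Of 15617 probe sets 115 controls were left out and 15502 tested with no filter on signal. Symbols came from the platform annotation, updated through gene numbers for 10711 probe sets; 10795 had 1 symbol, 135 several and 4572 none. Where a gene had several probe sets, that of highest mean was used. Other genes were named from lists by rule: up to 4 with the highest mean signal and up to 2 with the largest difference of both morpholinos together against control, plus the 8 closest in pattern. Differences are of group means of log2 values, with SEs from limma 3.58.1 under R 4.3.3 (a fit with lmFit and eBayes to the 12 arrays, two-sided, Benjamini-Hochberg over all probe sets tested, threshold 0.05). Fold changes are 2 to the power of these differences. The fit was also run on simulated data with independent noise and no replicate structure. Such data cannot show how it performs on arrays that correlate within a replicate number.

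Whether replicate numbers pair the arrays was checked after subtracting each group mean, by correlation across probe sets, which are not independent. The 12 same-numbered pairs correlated at 0.22 to 0.63, and 12 of 12 arrays matched best within their number. The 36 pairs of arrays from different groups with different numbers had a median of -0.17. Subtracting group means ties this median to the same-numbered correlations, so it is no independent background. The labels do not say what a number stands for. Nothing beyond the word biological says how the replicates were obtained, so p-values rest on the spread between these arrays. In the fit without the replicate block this spread includes that between replicate numbers. The 5 genes and the lists were chosen with earlier results of these data known. Alternatives were the replicate block, a filter on low signal, quantile normalization, median centring, array weights, an intensity trend, medians in place of means, means over probe sets, and leaving out arrays.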

Additional observations from a re-analysis of the deposited data

How the results depend on the processing

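The number of arrays limits these values: differences between groups of 4 had a median SE of 0.18 log2, or 0.16 with the replicate block. For the 5 genes the SEs were 0.32 to 0.58 in the fit without the block, which gave the SEs and intervals above. With the block they were smaller, from 0.23 for apoa2 to 0.40 for fga. Quantile normalization, median centring, medians and left-out arrays gave 150 recomputed differences of fga, fgb, fgg, tfa and apoa2 from control; all 150 were below 0 and within 1 SD of the spread between arrays, which says nothing independent of how the genes were chosen. Another 20, means over probe sets and the replicate block, could not move, since each gene had 1 probe set and the block leaves differences as they are. The median difference of the 5 genes was -0.97 with MO-1 and -0.52 with MO-2 with the replicate block too, and ran from -1.29 to -0.65 and from -0.79 to -0.28 when arrays were left out. Limma called 0 probe sets in the 4 comparisons under the block and the other alternatives, including left-out arrays, except that leaving out the arrays numbered 4 gave 1 with MO-2 against control and 1 with both morpholinos together, the gene pierce1 in each; the cause was not tested. A list median counted as moved when it shifted by more than the SD of its 4 pair medians, a limit that differs between lists. The median of the hepatocyte list moved to 0.08 with MO-1 without the arrays numbered 2. With MO-2, that of the platelet list moved to 0.20 without the arrays numbered 4, and that of the iron list from 0.02 to 0.06 without those numbered 3 and to -0.01 without those numbered 4. Larger shifts of other lists fell within their limits. With MO-1 and the arrays of a replicate number left out, the endocrine pancreas median ran from -0.30 to 0.03. The erythroid median ran from -0.85 to -0.18 and the endothelial median from -0.05 to 0.36. Between the morpholinos, fga turned below 0 with medians, without the arrays numbered 3, and without MO-2 replicate 3 or MO-1 replicate 2, and tfa without the arrays numbered 3.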
